A study of Sus scrofa with 4 samples.

Results

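Immediate early response genes were followed in single cells of pig pancreas and of organoids grown from its ducts. The set was fixed by name and holds 8 genes, FOS, FOSB, JUN, JUNB, EGR1, ATF3, DUSP1 and IER2, of 30282 gene identifiers in the deposited tables. Of these, 7 were measured, after all features of a gene, including extensions of its 3' end, had been added together. FOS, FOSB, JUNB, EGR1, ATF3 and DUSP1 were found by feature name and IER2 through a gene name table, and JUN was not analysed here. In the RefSeq annotation of the pig assembly Sscrofa11.1, a build named in the submitters' processing notes, the 7 genes are protein coding and lie at chr7:98449508-98451971 (FOS), chr6:51836780-51844531 (FOSB), chr2:66214086-66219435 (JUNB), chr2:140440829-140445302 (EGR1), chr9:130772259-130829678 (ATF3), chr16:51457924-51461095 (DUSP1) and chr2:65909638-65912491 (IER2).

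The study compared porcine pancreatic ductal organoids (PPDO), epithelial cultures kept in a gel matrix and started from duct cells, with freshly dissociated primary pancreas, by droplet-based single-cell RNA sequencing. Each group had 2 libraries. PPDO 1 and 2 were lines from pigs of German landrace background that differed in age and in passage number, and which line went into which library is not given by the labels. They were grown in a medium with WNT3A, R-spondin, noggin, EGF, FGF10, an inhibitor of TGF-beta receptors, prostaglandin E2 and a ROCK inhibitor, and were dissociated with TrypLE after the matrix had been dissolved in the cold. Primary pancreas came from a wild-type and an INS-eGFP pig of the same postnatal age, the second carrying eGFP under the insulin promoter. They were processed on different days with collagenase V and TrypLE. For the wild-type organ the ducts were picked by hand before live cells were sorted, and for the INS-eGFP organ cells that bound the duct lectin DBA, eGFP-positive cells and whole suspension were sorted and pooled. The labels number the primary libraries without naming the animal, and the numbers were taken to be those of the methods, where the wild-type pig is the first. UMIs of eGFP were found in primary pancreas 2 only. Animal, genotype, day, preparation and sort thus change together between the primary libraries and cannot be told apart.

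Immediate early genes are transcribed within minutes of a stimulus, without new protein being made, because the factors that switch them on are already bound at their promoters and wait for phosphorylation by kinases such as ERK, JNK and p38. Growth factors, stress and tissue handling all induce them, and their mRNAs are short lived. FOS, FOSB, JUN and JUNB encode subunits of the AP-1 transcription factor, ATF3 is a stress-induced partner and repressor of the same family, and EGR1 is a zinc finger factor. DUSP1 is a phosphatase that switches the inducing kinases off again, and IER2 is a small nuclear protein of less well understood role.

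After filtering, 8885 and 7337 cells remained in PPDO 1 and 2, and 5671 and 4261 in primary pancreas 1 and 2. The median kept cell carried 34176 and 34459 unique molecular identifiers (UMIs, counted molecules) in PPDO and 10169 and 23651 in primary pancreas. Pairs of libraries shared 10 to 23 cell barcodes. Levels are given as CPM (the UMIs of a gene divided by all UMIs of the summed cells, scaled to 1e6), and their 95% exact Poisson intervals, like the binomial intervals of shares, cover counting error only. Primary cells were clustered without the early response and heat shock genes, and 6 marker-named classes had at least 20 cells in each primary library: ductal-like (2238 and 1188 cells in primary pancreas 1 and 2), acinar-like (257 and 419), endocrine-like (101 and 2203), endothelial-like (1073 and 264), stellate-like (743 and 48) and immune-like (709 and 138). The primary libraries largely filled different clusters in ductal-like, acinar-like and endothelial-like cells. Endocrine-like cells shared their clusters in different proportions, and stellate-like cluster 21 held 129 cells of primary pancreas 1 and 0 of primary pancreas 2. Of the 1073 and 264 endothelial-like cells, 673 and 2 lay in cluster 4 and 0 and 193 in cluster 14. The acinar-like cells of primary pancreas 1 lay in clusters 18 and 20 (108 and 149 cells), and of those of primary pancreas 2, 56 lay in cluster 18 and 363 in cluster 8. That name was not stable, since the acinar-like cells of primary pancreas 2 fell from 419 to 56 with the members kept in the clustering, to 58 with doublets kept and to 175 at the higher resolution, and the others were then unnamed. Of the endocrine-like cells, 56 of 101 lay in cluster 7, led by SST and GCG, in primary pancreas 1, against 414 of 2203 in primary pancreas 2, where 936 and 853 lay in clusters 2 and 3 with INS among their leading genes. The ductal-like clusters are given with their values. The 7 measured duct markers summed to 25442 and 29595 CPM in ductal-like cells and to 1176 and 1086 CPM in PPDO. SLC4A4 made up most of the ductal-like sums, at 22201 and 25902 CPM against 418 and 327 CPM in PPDO. SCTR was at 1.14 and 0.793 CPM in PPDO against 576 and 964 CPM, and ANXA4 at 127 and 132 CPM against 595 and 712 CPM. BMPR1A was at a like level, 237 and 240 CPM in PPDO against 233 and 274 CPM. KRT7 was at 389 and 384 CPM in PPDO against 571 and 596 CPM in ductal-like cells, while CFTR was at 1.04 and 0.636 CPM against 942 and 795 CPM, and SOX9 at 3.30 and 1.44 CPM against 323 and 352 CPM. Free RNA was gauged by INS in immune-like cells, where it made up 0.0180% of UMIs in primary pancreas 1 and 1.19% in primary pancreas 2. Endocrine-like cells were 1.78% and 51.7% of the kept cells, so INS does not compare free RNA as a whole between the libraries. The acinar markers summed to 647 and 367 CPM in immune-like, 376 and 125 CPM in endothelial-like and 342 and 468 CPM in stellate-like cells. In the acinar-like cells of primary pancreas 2 INS made up 9.87% of UMIs (0.0244% in primary pancreas 1), and the endocrine markers summed to more there (100748 CPM) than the acinar ones (85750 CPM).

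The AP-1 genes were found in each of the 6 classes, and in each class they were higher in primary pancreas 1 than in primary pancreas 2. FOS in ductal-like cells was at 2040.1 CPM in primary pancreas 1 and 181 CPM in primary pancreas 2. It was at 3637 and 221 CPM in stellate-like, 2626 and 1142 CPM in immune-like, 1859 and 183 CPM in endothelial-like, 1684 and 20.3 CPM in endocrine-like and 389 and 75.2 CPM in acinar-like cells. Immune-like cells thus had the highest FOS level of primary pancreas 2. It came mostly from cluster 11, led by CD300C, SLC11A1 and FCER1G, with 2044 CPM in 51 cells, while cluster 10, led by GNLY, KLRK1 and CCL5, was at 83.2 CPM in 73 cells and cluster 13 at 555 CPM in 14 cells, and 47.1% of the immune-like cells thinned to 3000 UMIs held no member. The lowest was that of endocrine-like cells there, in which INS alone took 52.8% of UMIs (37.8% in primary pancreas 1). The FOS intervals of primary pancreas 2 overlapped between stellate-like and endothelial-like and between endothelial-like and ductal-like cells, and none of the neighbouring classes of primary pancreas 1 did. Within clusters that both libraries filled, FOS was at 238 and 33.3 CPM in acinar-like cluster 18. It was at 2562 and 46.7 CPM in endocrine-like cluster 7. The sum of the members was higher in primary pancreas 1 there and in stellate-like cluster 6 (9928 and 460 CPM, 437 and 41 cells). The same held for immune-like clusters 10 (2088 and 226 CPM), 11 (7096 and 4090 CPM) and 13 (7958 and 978 CPM). Of the clusters with cells of both libraries, only ductal-like cluster 9 had a higher sum in primary pancreas 2 (1933 and 2341 CPM, 341 and 17 cells). FOS itself was lower in primary pancreas 2 in that cluster. In 341 Schwann-like cells, which only primary pancreas 1 held in number, FOS reached 5791 CPM.

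FOSB, which forms AP-1 with JUN proteins as FOS does, had a wider gap between the libraries than the other members in 5 of 6 classes, with EGR1 ahead in stellate-like cells. It was at 1224 and 56.3 CPM in ductal-like cells of primary pancreas 1 and 2, 730 and 39.2 CPM in stellate-like, 642 and 61.8 CPM in immune-like, 373 and 1.75 CPM in endocrine-like, 325 and 5.13 CPM in endothelial-like and 189 and 14.3 CPM in acinar-like cells. In primary pancreas 2 FOSB rested on 15 UMIs in endothelial-like and 43 in acinar-like cells. ATF3 had the next widest gap there, on 33 and 83 UMIs, so that order rests on few UMIs. The 3' extension held 24.8% and 8.84% of FOSB UMIs in all cells of primary pancreas 1 and 2. Ductal-like cells had the highest FOSB level of primary pancreas 1. In primary pancreas 2 their interval overlapped that of immune-like cells, which were at the top. JUNB, an AP-1 subunit that can restrain JUN, had another order, with 441 and 69.4 CPM in ductal-like, 1129 and 64.5 CPM in stellate-like, 963 and 163 CPM in endothelial-like, 702 and 259 CPM in immune-like, 328 and 6.38 CPM in endocrine-like and 125 and 36.0 CPM in acinar-like cells. For JUNB the ductal-like cells ranked 4 of 6 classes in primary pancreas 1 and 3 of 6 in primary pancreas 2.

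ATF3 was high in the duct cells of each primary library. Its level was 1347 and 136 CPM in ductal-like cells of primary pancreas 1 and 2, 567 and 177 CPM in immune-like, 462 and 27.6 CPM in stellate-like, 440.0 and 11.3 CPM in endothelial-like, 322 and 27.6 CPM in acinar-like and 60.3 and 0.424 CPM in endocrine-like cells. Ductal-like cells stood highest in primary pancreas 1 and came after immune-like cells in primary pancreas 2. EGR1 was at 1016 and 200.4 CPM in ductal-like, 1718 and 53.0 CPM in stellate-like, 570.2 and 72.6 CPM in endothelial-like, 507 and 16.5 CPM in endocrine-like, 439 and 73.2 CPM in immune-like and 259 and 64.3 CPM in acinar-like cells. For EGR1 the duct cells came after stellate-like cells in primary pancreas 1 and were highest in primary pancreas 2.

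DUSP1, the phosphatase, was not lower in primary pancreas 2 in the sum of endothelial-like cells. Its level there was 853 CPM (95% interval 836 to 869) in primary pancreas 1 and 1007 CPM (971 to 1044) in primary pancreas 2, and 83.7% and 84.1% of cells thinned to 3000 UMIs held a DUSP1 UMI. This held for the class as made of different clusters. DUSP1 was at 920.2 CPM in cluster 4 (673 cells of primary pancreas 1) and at 1160 CPM in cluster 14 (193 cells of primary pancreas 2), while in cluster 12, with 249 and 48 cells, it was lower in primary pancreas 2 (646 and 466 CPM), and in cluster 17, with 151 and 21 cells, it was at 959 and 963 CPM. FOS in clusters 12 and 17 was at 2114 and 136 CPM and at 2735 and 469 CPM. Over the class FOS, FOSB, JUNB, EGR1 and ATF3 were 5.93 to 63.4 times higher in primary pancreas 1. In the other classes DUSP1 was at 986 and 573 CPM (immune-like), 655 and 79.3 CPM (ductal-like), 241 and 11.5 CPM (endocrine-like), 103 and 18.4 CPM (stellate-like) and 80.6 and 32.3 CPM (acinar-like). IER2 was at the edge of detection, with 295, 188, 159 and 13 UMIs in all cells of PPDO 1, PPDO 2, primary pancreas 1 and primary pancreas 2. Its level was 1.28 and 0.394 CPM in ductal-like, 4.15 and 0.685 CPM in endothelial-like and 3.26 and 0.671 CPM in immune-like cells. Stellate-like cells had 3.25 CPM in primary pancreas 1 and no IER2 UMI in primary pancreas 2, and acinar-like and endocrine-like cells had none in either library. IER2 has a single feature with no extension of its 3' end in these tables, and whether that feature covers the 3' end that the chemistry reads was not tested, while extensions held 0.155% to 31.2% of the UMIs of the other members, most in FOSB.

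**Figure D1:**
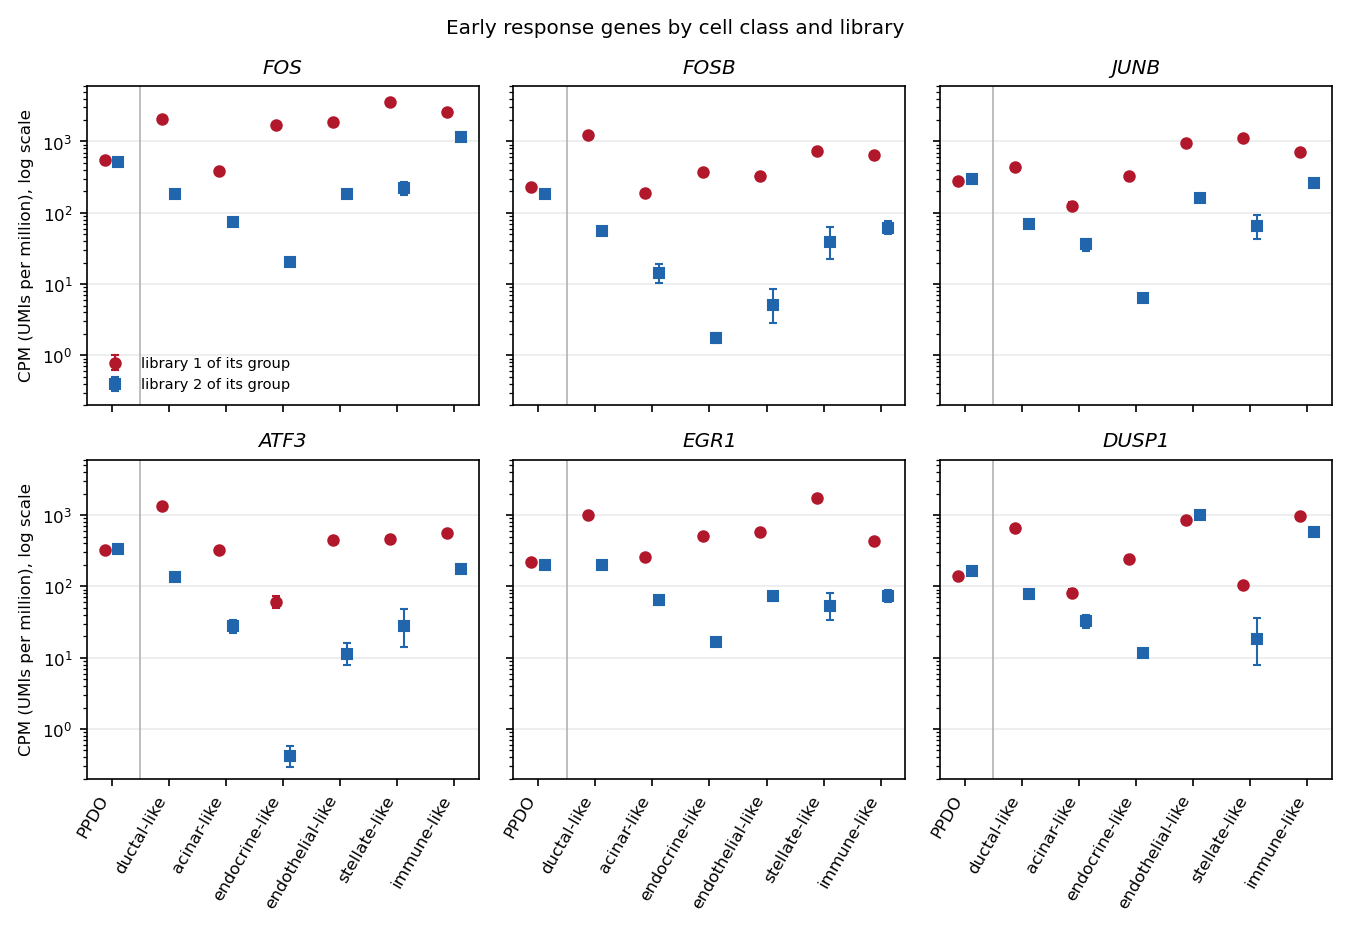
CPM (log scale) of the 6 members above 20 CPM in PPDO (left of the line) and in the 6 primary cell classes, with a circle for library 1 and a square for library 2 of each group and 95% Poisson intervals as bars. The PPDO libraries lie together, while primary pancreas 1 lies above primary pancreas 2 everywhere but for DUSP1 in endothelial-like cells (853 and 1007 CPM).

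To ask whether the classes differed, class sums were fitted with the library as a term, since the classes of a library come from 1 animal. That term takes out the overall gap between the libraries, so the test does not measure the classes against that gap. In edgeR's quasi-likelihood test with Benjamini-Hochberg adjustment over 17075 genes, 6 of 7 members differed among classes, against 75.5% of all genes tested. DUSP1 had the lowest adjusted p (5.3e-04), followed by ATF3 (0.00178), IER2 (0.00537, on few UMIs), FOSB (0.0293), FOS (0.0354) and JUNB (0.0395), while EGR1 was at 0.151. Set against the mean of the other classes, ductal-like cells were higher in ATF3 by 2.17 on the log2 scale (SE 0.50, adjusted p = 0.00404) and in FOSB by 1.38 (SE 0.45, adjusted p = 0.0289). These were 2 of 7 members, against 22.1% of all genes called higher in the same contrast. The difference had the same sign in each library, with 2.18 and 2.84 for ATF3 and 1.60 and 1.98 for FOSB on the log2(CPM + 1) scale in primary pancreas 1 and 2. EGR1 was at 1.01 (adjusted p = 0.0700), DUSP1 at 0.14 (0.903), FOS at -0.25 (0.791) and JUNB at -0.48 (0.523). On the log2(CPM + 1) scale the 2 libraries gave 0.85 and 1.99 for EGR1, 1.22 and -0.098 for DUSP1, 0.32 and 0.28 for FOS, both of the other sign than the fit, and -0.18 and 0.24 for JUNB. The fitted value of IER2 (1.51, adjusted p = 0.139) rests on classes with no UMI and depends on the prior count. With IER2 counted, the median of the 7 members was 1.01 against 0.06 for all genes, and 2 of the 7 lay below 0. The median thus depends in part on the IER2 value. Without the library term edgeR called 1 member, IER2, as differing among classes and none as higher in duct cells (ATF3 1.87, adjusted p = 0.355, FOSB 1.25, 0.624), and without the duct cluster led by OSGIN1, which lowers the duct levels by construction, it called 3 and none (ATF3 1.41, adjusted p = 0.145, FOSB 0.48, 0.636), with none at an unadjusted p under 0.05 in either fit of the duct contrast. Without the 3' extensions 3 members differed among classes (FOS, FOSB and JUNB were lost, with adjusted p from 0.0630 to 0.117), and of the duct calls only that of ATF3 remained (FOSB 1.29, adjusted p = 0.0772). With DESeq2 4 members differed among classes, and FOSB was again lost in the duct contrast (1.18, adjusted p = 0.135). Over all alternatives the adjusted p of the duct contrast ran from 7.9e-16 to 0.355 for ATF3 and from 6.2e-07 to 0.636 for FOSB. With plain library sizes 6308 of 8191 calls were higher in ductal-like cells, and with DESeq2 3258 of 7201, against 3769 of 6409.

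The difference between the primary libraries was then set against that of other genes, within each class. As each library is a single preparation, no test was made. Among the genes with a class mean of at least 20 CPM, the share over 4 times higher in primary pancreas 1, on the scale of CPM + 1, was 1.55% in ductal-like, 1.66% in endocrine-like, 2.25% in stellate-like, 0.95% in endothelial-like, 0.394% in acinar-like and 1.51% in immune-like cells. A gene that reaches such a mean only through primary pancreas 1 has to differ, as 5 members did in endocrine-like, 2 in endothelial-like and 1 each in stellate-like and acinar-like cells, so members are counted here only where primary pancreas 2 alone had at least 20 CPM, a limit chosen after the values were seen. In ductal-like cells all members but IER2 had that level, and 6 of 6 were over 4 times higher in primary pancreas 1, against 0.563% of the 7276 genes of that level. The count was 5 of 5 in stellate-like cells (0.564% of genes), 3 of 4 in endothelial-like (0.349%), 2 of 5 in acinar-like (0.0937%), 2 of 6, FOSB and EGR1, in immune-like (0.514%) and 1 of 1, FOS, in endocrine-like cells (0.446%). The median share of mitochondrial UMIs was higher in primary pancreas 1 than in 2 in ductal-like (0.764% and 0.499%), endocrine-like (0.565% and 0.208%), endothelial-like (0.238% and 0.189%) and immune-like cells (0.259% and 0.255%) and lower in acinar-like (0.979% and 1.30%) and stellate-like cells (0.245% and 0.271%). The sum of the heat shock genes was not higher in primary pancreas 1 in ductal-like (3040.1 and 3121 CPM) and acinar-like cells (810 and 946 CPM), but it was in endocrine-like (2382 and 1230 CPM), immune-like (3173 and 2084 CPM), endothelial-like (3267 and 2445 CPM) and stellate-like cells (3000 and 2324 CPM). Such a sum follows its most abundant genes. In the ductal-like cells of primary pancreas 2, 11 heat shock genes had at least 20 CPM. Of these, 3 were over 2 times higher in primary pancreas 1 (CPM + 1) and 0 over 4 times. The shares of all genes of that level were 2.45% and 0.563%. The part of mitochondrial share, heat shock, day, sort or digestion in the gap was not tested.

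Within primary pancreas 1 the duct cells were not alike. The 2 primary libraries filled the ductal-like class from separate clusters, and the largest cluster of it in primary pancreas 1 (cluster 0, with 1246 cells there and 1 in primary pancreas 2, led by OSGIN1, AADAC and EREG) had high levels of the members. FOS was at 2695 CPM in cluster 0 and at 204 CPM in cluster 5 (527 cells of primary pancreas 1, led by DSP, SOX9 and SLC47A2), close to the 182 CPM of cluster 1, which held 1106 of the duct cells of primary pancreas 2. ATF3 was at 1766, 143 and 135 CPM in clusters 0, 5 and 1, and EGR1 at 1327, 144 and 195 CPM. JUNB was at 582, 48.1 and 67.9 CPM, and DUSP1 at 850.2, 107 and 76.7 CPM. FOSB differed most between clusters 5 and 1, at 1611 CPM in cluster 0, 160 CPM (152 to 168) in cluster 5 and 53.0 CPM (50.1 to 56.0) in cluster 1. Cluster 9 of primary pancreas 1 (341 cells, led by TCN1, TM4SF20 and ONECUT2) lay in between, with FOS at 476 CPM and ATF3 at 533 CPM. It was the one duct cluster with more than 1 cell of each library, and its 17 cells of primary pancreas 2, at a median of 22825 UMIs against 5457, were not lower in all members. There FOS was at 389 CPM and ATF3 at 281 CPM, both below primary pancreas 1, FOSB at 306 CPM against 325 CPM, and EGR1 at 722 CPM against 300.3 CPM, JUNB at 265 CPM against 106 CPM and DUSP1 at 379 CPM against 192 CPM, with a sum of the members of 2341 CPM against 1933 CPM. Cluster 22 (124 cells of 1083 UMIs in the median) was as high as cluster 0 for FOS, at 2717 CPM. The 64 ductal-like cells of primary pancreas 2 in cluster 25 had lower levels than cluster 1, with FOS at 67.5 CPM, EGR1 at 104 CPM and ATF3 at 84.4 CPM, while FOSB, at 40.3 CPM on 31 UMIs, overlapped it in its interval, and with 13 UMIs of JUNB and 12 of DUSP1. The members took no part in the clustering, but genes that vary with them did, so these values are a description.

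**Figure D2:**
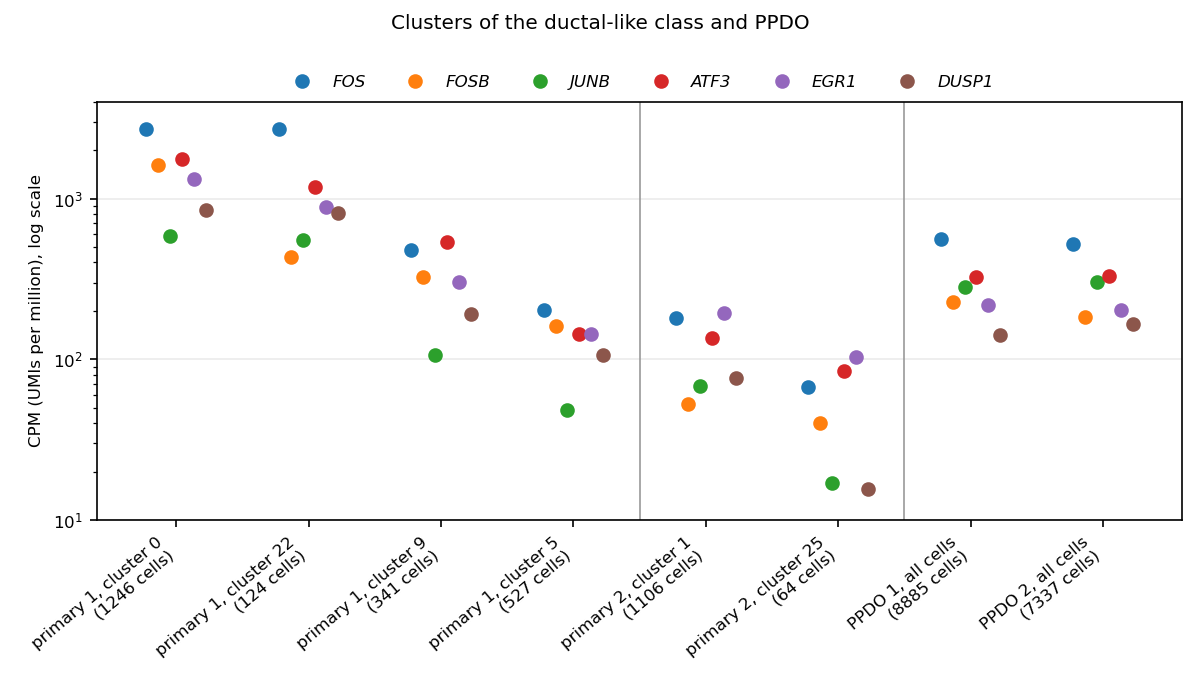
CPM (log scale) of 6 members in the clusters of the ductal-like class, with 4 clusters of primary pancreas 1 on the left, 2 of primary pancreas 2 in the middle and all cells of each PPDO library on the right. Cluster 5 of primary pancreas 1 lies near cluster 1 of primary pancreas 2, with FOS at 204 and 182 CPM, and far below cluster 0 (2695 CPM).

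PPDO were compared with primary ductal-like cells, the cells from which such organoids derive. The members lay close together in the PPDO libraries. FOS was at 557 and 522 CPM in PPDO 1 and 2, FOSB at 227 and 184 CPM and JUNB at 281 and 302 CPM. ATF3 was at 325 and 330.1 CPM, EGR1 at 219 and 201 CPM, DUSP1 at 142 and 166 CPM and IER2 at 0.980 and 0.717 CPM. For each of the 7 members both PPDO values fell between the primary pancreas 2 and primary pancreas 1 values given above, EGR1 only just above that of primary pancreas 2 (200.4 CPM). The primary values lay 3.26 (IER2) to 21.8 (FOSB) times apart. The share of all genes with PPDO values in between was not counted, so nothing is read from this. As group means, FOS was at 539 CPM ± 24.8 (SD, n = 2) in PPDO and at 1111 CPM ± 1315 (SD, n = 2) in ductal-like cells, so the spread of the primary group was larger than its mean.

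With 2 sums per group in edgeR's quasi-likelihood test, no member passed an adjusted p of 0.05 over the 23549 genes tested, against 43.9% of all genes called. None of the 7 had an unadjusted p under 0.05, and DESeq2 called none. The log2 fold changes of PPDO over ductal-like cells were -0.69 (SE 1.11, adjusted p = 0.644) for FOS, -1.30 (SE 1.34, 0.471) for FOSB, 0.56 (SE 0.90, 0.646) for JUNB, -0.82 (SE 1.06, 0.564) for ATF3, -1.16 (SE 0.82, 0.299) for EGR1, -0.89 (SE 1.00, 0.505) for DUSP1 and 0.37 (SE 0.65, 0.678) for IER2. Their median was -0.82 against 0.01 for all genes. Without TMM factors the median of all genes moved by -0.46, to -0.45, that of the members was -1.18, IER2 turned to -0.025, and the calls over all genes split into 3255 higher and 6972 lower in place of 5385 and 4946.

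The direction depended on which primary cells were kept. Without primary pancreas 1, 6 of 7 members were higher in PPDO (22.2% of genes were higher and 19.7% lower), with log2 fold changes of 2.11 for FOS, 2.40 for FOSB, 2.61 for JUNB, 1.81 for ATF3, 0.60 for EGR1 and 1.49 for DUSP1 and adjusted p from 0.00210 to 0.0197. Without primary pancreas 2, 5 of 7 were lower in PPDO (21% of genes were lower and 22.1% higher), at -1.60 for FOS, -2.26 for FOSB, -1.73 for ATF3, -1.96 for EGR1 and -1.77 for DUSP1, with adjusted p from 0.00220 to 0.00486. Such a fit has 1 primary sum, which is assumed to vary like PPDO sums. Among the ductal-like clusters, cluster 0 held the highest sum of the members. Leaving it out of the duct cells, a choice made after its values were seen, lowers the duct levels by construction and is a description with no test. The log2 fold changes were then 1.62 for FOS, 1.12 for FOSB, 2.57 for JUNB, 1.27 for ATF3, 0.59 for EGR1, 0.97 for DUSP1 and 1.43 for IER2. The threshold was passed by 5 of 7 members, where 27% of genes were higher and 49.9% were called in either direction, and nothing is read from that count.

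**Figure D3:**
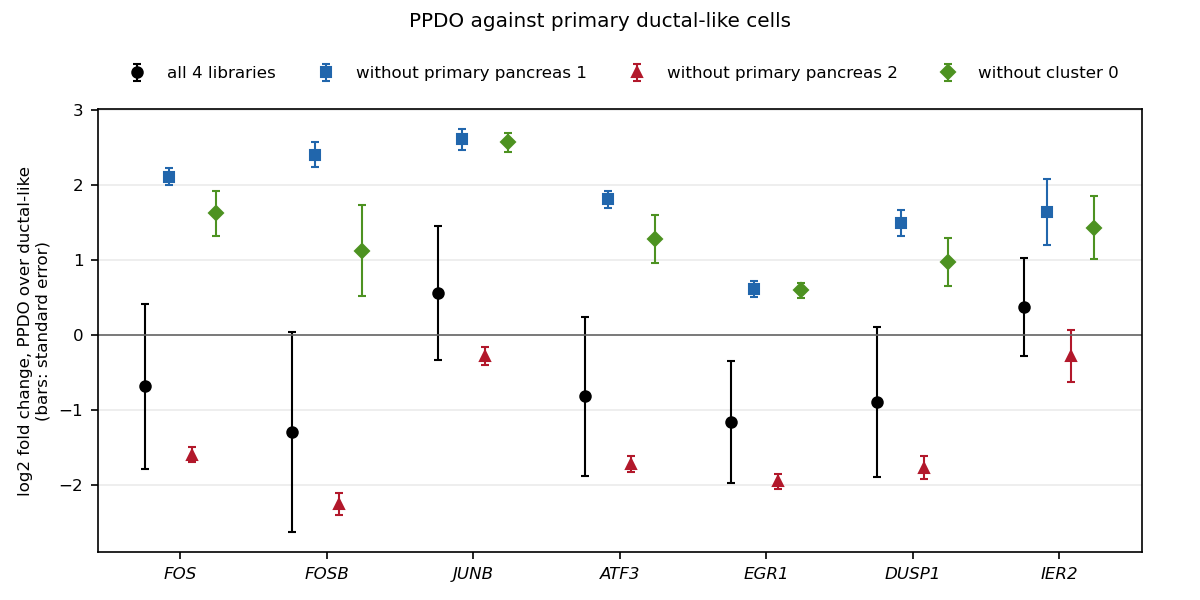
Log2 fold change of PPDO over primary ductal-like cells for each measured member, with the standard error as bars, from all 4 libraries (circles), without primary pancreas 1 (squares), without primary pancreas 2 (triangles) and without cluster 0 (diamonds). With all libraries the errors are wide (FOS -0.69, SE 1.11), and leaving out either primary library moves FOS to 2.11 or -1.60.

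The share of cells with a UMI was compared at equal depth. At 3000 UMIs per cell, FOS was found in 70.4% and 68.7% of PPDO cells and in 72.9% and 25.9% of the ductal-like class in primary pancreas 1 and 2, and unthinned in 94.7%, 96.8%, 80.3% and 45.8%. ATF3 was found in 53.2% and 53.0% of PPDO cells and in 70.6% and 22.1% of ductal-like cells, and unthinned in 92.3%, 92.7%, 77.4% and 46.7%. No class can be taken to lack these genes. The lowest thinned shares, given in place of such a class, were 50.8% (acinar-like) and 6.31% (endocrine-like) for FOS and 9.59% and 0.136% (endocrine-like) for ATF3 in primary pancreas 1 and 2. The median depth was 7329 UMIs for the acinar-like cells, and 12878 and 39457 UMIs for the endocrine-like cells.

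A cell of PPDO 1 and 2 held on average 2.90 and 2.83 of the 7 members at this depth, and a ductal-like cell of primary pancreas 1 and 2 held 3.93 and 1.20. The mean difference of 0.299 was smaller than the spread of the primary libraries (SD 1.93, n = 2), with a two-sided exact permutation p of 1, where 0.333 is the smallest that 2 against 2 libraries can give. It took the other sign at 1000 UMIs per cell (-0.295). The PPDO distribution had a single peak at 3 members (25.1% and 24.2% of cells), and 6.05% and 5.64% of cells held none. In ductal-like cells of primary pancreas 1, 37.3% held 6 members, 18.4% held 5 and 14.8% none, with 5.57% to 9.97% at each number from 1 to 4, and in primary pancreas 2 51.9% held none. By cluster, a cell held 5.37 members on average in cluster 0, 1.37 in cluster 5 and 1.20 in cluster 1. Of the cells kept, 61 and 10 of PPDO and 191 and 0 of ductal-like cells were too shallow to be thinned.

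**Figure D4:**
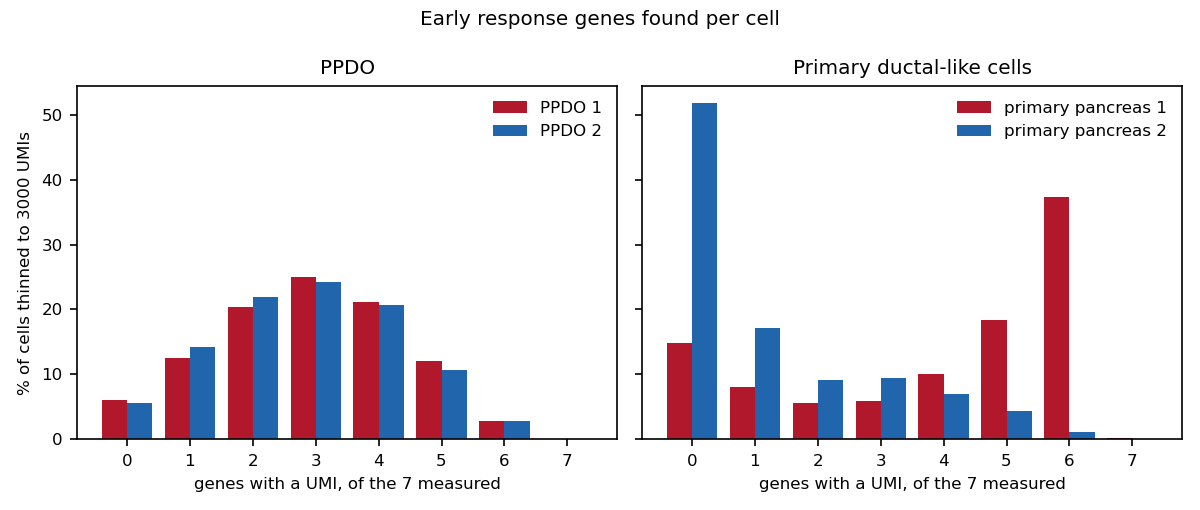
Share of cells, in %, by the number of the 7 measured members with a UMI, in PPDO (left) and in primary ductal-like cells (right), each cell thinned to 3000 UMIs. The PPDO libraries peak at 3 members (25.1% and 24.2%), primary pancreas 1 at 6 (37.3%) and primary pancreas 2 at 0 (51.9%).

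Among the 10 clusters of PPDO, also formed without these genes, 6 members were found in each cluster of each library, but not evenly. IER2 had no UMI in cluster 9 of PPDO 2. Cluster 9, led by S100A8, S100A12 and SPRP, held 41 and 105 cells at a median of 14129 UMIs. ATF3 was at 36.0 and 37.5 CPM in it, against cluster medians of 311 and 318 CPM in PPDO 1 and 2. FOSB was at 24.0 and 31.7 CPM against medians of 204 and 195 CPM, and EGR1 at 65.1 and 52.8 CPM against 202 and 199 CPM. JUNB moved less there, at 205 and 276 CPM against 276 and 298 CPM. In the PPDO 1 cells of cluster 9 the FOSB value rests on 14 UMIs and that of ATF3 on 21.

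Cluster 4, led by ADM, TIMP3 and EGLN1 and with 1128 cells of PPDO 1 and 130 of PPDO 2, had low FOSB in each library (57.2 and 88.2 CPM), while FOS was at 197 and 363 CPM and DUSP1 at 55.6 and 134 CPM. Cluster 6, led by PLXDC2, SPINK5 and PLA2G4E, was low in ATF3 (157 and 151 CPM) and EGR1 (129 and 112 CPM), with DUSP1 at 150.3 and 191 CPM. The highest ATF3 levels were those of cluster 3, led by CXCL14 and HMCN1 (440 and 430 CPM), and of cluster 5, led by the mitotic genes CENPF and TOP2A (411 and 436 CPM). Cluster 8, led by SPP1 and CFD, had the highest DUSP1 level of each library, 168 and 299 CPM. In PPDO 2 it was also the highest for FOS, at 761 CPM, but in PPDO 1 it was near the middle (512 CPM against a median of 528 CPM).

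**Figure D5:**
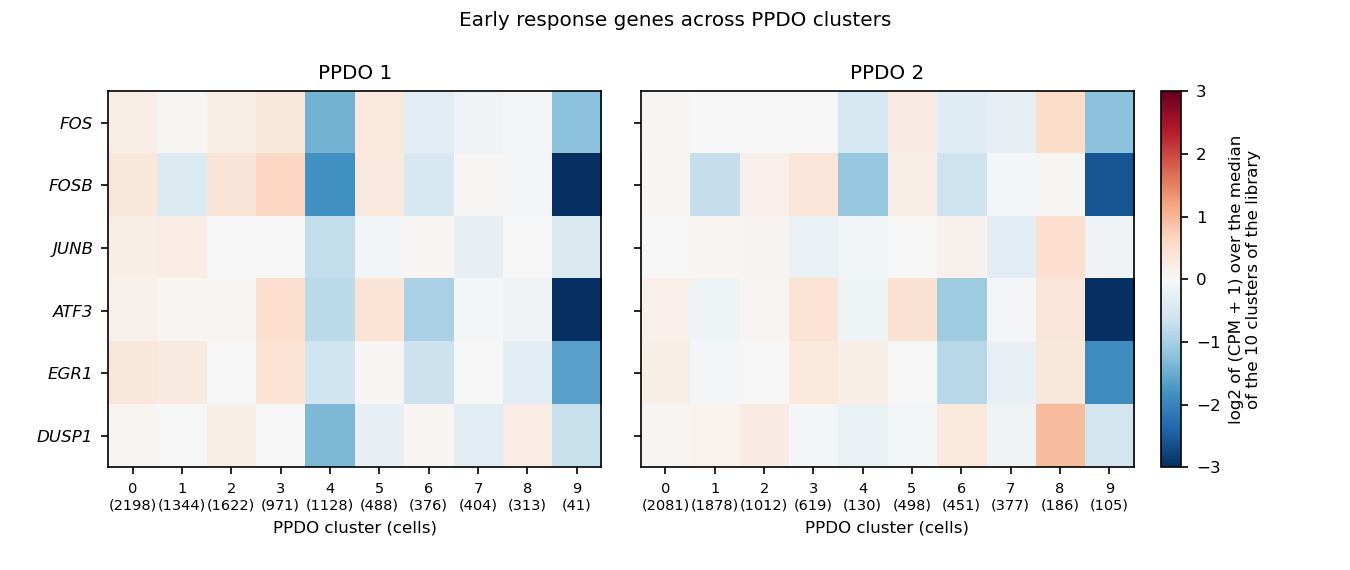
Log2 of (CPM + 1) over the median of the 10 clusters for 6 members, in PPDO 1 (left) and PPDO 2 (right), with the number of cells under each cluster and colours that end at 3 in each direction. Cluster 9 is low for ATF3 (36.0 and 37.5 CPM) and FOSB (24.0 and 31.7 CPM) in each library, and cluster 4 for FOSB.

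Most of the other early response genes were not called, and those called went in either direction. Of 42 further early response genes, 40 were tested, and in PPDO against ductal-like cells 4 were called higher (DUSP6, MYC, AREG and PTGS2) and 4 lower (CCN2, RHOB, SOCS3 and CEBPD), with a median log2 fold change of -0.18. Of all genes tested, 22.9% were called higher and 21% lower. MYC, a growth-promoting transcription factor, was at 44.1 and 46.7 CPM in PPDO and at 3.49 and 0.434 CPM in ductal-like cells, and its fitted difference by edgeR was 4.85 on the log2 scale (SE 0.99, adjusted p = 0.0178), which missed the threshold without PPDO 1 (4.93, 0.0536) and without PPDO 2 (4.77, 0.0614). DUSP6, the phosphatase that acts on ERK, was at 63.2 and 65.5 CPM against 19.2 and 13.2 CPM (2.41, SE 0.30, 0.00448). FOSL1, FOSL2, EGR2, EGR3, NR4A1, KLF4, KLF6, ZFP36, IER3, HBEGF and EREG did not pass, with adjusted p from 0.0707 to 0.782. With DESeq2 FOSL2 passed (1.06, adjusted p = 0.0249), and each of the 11 passed by edgeR with primary pancreas 1 or primary pancreas 2 left out. In ductal-like cells ZFP36, which destabilises early response mRNAs, was at 537 CPM in primary pancreas 1 and at 77.9 CPM in primary pancreas 2. KLF6 was at 439 and 89.7 CPM. Both were over 4 times higher in primary pancreas 1 (CPM + 1), like the 6 members above 20 CPM but not IER2. FOSL1, EGR3, KLF4, HBEGF, NR4A1 (78.9 and 5.13 CPM) and IER3 were so too, but at under 20 CPM in primary pancreas 2. FOSL2, EGR2 and EREG were not. In the ductal-like cells of primary pancreas 2, 16 of the further early response genes had at least 20 CPM. Of these, 5 were over 4 times and 12 over 2 times higher in primary pancreas 1 on the scale of CPM + 1. The shares of all genes of that level were 0.563% and 2.45%. JUND and BTG2 were not analysed here.

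Genes of the inducing pathway were measured from receptor to transcription factor. Of 26 listed, 25 were tested in PPDO against ductal-like cells, and 8 were higher (ERBB3, HRAS, MAP2K2, ELK3, RPS6KA1, SPRY2, SPRY4 and DUSP6) and 4 lower (ERBB2, BRAF, MAPK9 and CREB1), with a median of 0.25, where 22.9% of all genes were called higher and 21% lower. EGFR, the receptor of EGF, was at 157 and 159 CPM in PPDO and at 197 and 196 CPM in ductal-like cells (0.14, adjusted p = 0.487), and it turned to -0.31 without TMM factors. The feedback inhibitor SPRY2 was at 24.6 and 22.8 CPM against 12.9 and 10.8 CPM (1.44, SE 0.22, adjusted p = 0.00811), and the ETS factor ELK3 at 14.0 and 17.3 CPM against 3.92 and 6.11 CPM (2.13, SE 0.25, 0.00400). SRF, the factor bound at many early response promoters, was at 14.0 and 10.9 CPM against 36.5 and 18.4 CPM (-0.73, adjusted p = 0.227), and the stress kinase gene MAPK14 at 63.0 and 59.5 CPM against 54.9 and 88.6 CPM (0.25, 0.322). Without primary pancreas 2 SRF (-1.24, adjusted p = 0.0143) and MAPK14 (0.47, 0.0407) passed. None of the 25 was over 2 times higher in primary pancreas 1 than in 2 in ductal-like cells on the scale of CPM + 1, although SPRY4, at 0.482 and 0.0789 CPM, was so by CPM. Of all genes with at least 20 CPM in the ductal-like cells of primary pancreas 2, 2.45% were. Only 16 of the 25 had that level, so a count of 0 lies near that share. Of 15 heat shock genes, 13 were tested, and 5 were higher in PPDO (HSPA8, HSPA5, HSPB1, HSP90AB1 and HSPE1) and none lower by edgeR, against the same shares of all genes. HSPA1A and HSPA1B were not analysed here. The chaperone gene DNAJB1 was at 126 and 111 CPM against 82.2 and 39.2 CPM (1.37, adjusted p = 0.0632) and passed under 7 alternatives, with DESeq2 among them (1.36, 0.0116). HSPH1 was at 38.2 and 36.7 CPM against 92.6 and 44.0 CPM (-0.46, 0.438), and it passed without primary pancreas 2 (-0.99, 0.00754).

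Across the 12 class sums of the primary libraries, the measured members followed each other. Pearson's r of log2(CPM + 1) ranged from 0.489 (FOSB and DUSP1) to 0.966 (FOS and JUNB) over 21 pairs, with a median of 0.793, as a description of sums that share 2 libraries and their gap. Among 6671 genes of at least 20 CPM, those most like the mean of the members were CCNL1 (r = 0.962), a cyclin of RNA splicing, CSRNP1 (0.936), DUSP5 (0.932), NFIL3 (0.927), SUB1 (0.909) and PPP1R15A (0.909). CSRNP1, DUSP5 and PPP1R15A are on the list of further early response genes. CCNL1 was at 351 CPM in ductal-like cells of primary pancreas 1 and at 96.5 CPM in those of primary pancreas 2, and at 128 and 27.3 CPM in endocrine-like cells.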

How the data were processed

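Per the labels, 2 libraries of PPDO and 2 of primary porcine pancreas were prepared with the 10x Chromium 3' chemistry. The authors deposited unnormalized counts of UMIs for each feature in each barcode, made with Cell Ranger 7.1.0 (version in the file headers) against an in-house pig annotation. Barcodes and feature names stand in further deposited files, which hold no measurement (unit: other). The free RNA correction that the study ran afterwards was not applied here. The 56060 features, 25770 of them extensions of 3' ends, were summed to 30282 genes. Positions are from RefSeq, whose build the submitters' processing notes also name, beside a human build.

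Cells were kept by limits taken from the study. These were at most 3% mitochondrial UMIs and 1000 to 9000 features in PPDO, and at most 8% with over 400 features (primary pancreas 1) or over 800 features and 3000 UMIs (primary pancreas 2) and under 9000 features in primary pancreas. The study's lower limit was 600 features for one PPDO line, which the labels do not place, so 1000 was used for both. The lower limit would add 60 and 51 cells and change no member's CPM by over 0.143%. Scrublet (Scanpy 1.11.5) scores over 0.25 and 0.15 removed 89 and 154 cells of primary pancreas 1 and 2. For PPDO no score limit was set, so doublets were not removed there, and the caller's own threshold marked 0 cells. Clustering used 2000 variable genes, without the members and the listed early response and heat shock genes, 20 components and Leiden at resolution 0.5. A class name needed 3 markers. Of the markers, KRT19 and MUC1 (ductal), CTRB1, CTRB2, AMY2, AMY2A and AMY2B (acinar) and S100B and GFRA3 (Schwann) were not analysed here.

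UMI counts were summed per library and class, since cells are not replicates, and tested with edgeR 4.0.16 (TMM, filterByExpr, glmQLFit, glmQLFTest, Benjamini-Hochberg at 0.05). SE is the fold change divided by the root of the F statistic. DESeq2 1.42.0 was an alternative. Total UMIs were 366263520 and 316018482 in PPDO and 87043513 and 138928395 in primary pancreas. Cells thinned to 3000 UMIs were drawn once with a fixed seed. The fits were tested on simulated sums with known changes at the common dispersion. For PPDO against ductal-like cells edgeR recovered 3% of 2-fold and 74% of 4-fold changes, with 1 false call. DESeq2 recovered 9% and 88%, with 21 false calls. For ductal-like cells against the other classes edgeR recovered 37% and 99%, with 7 false calls. A 2-fold change between PPDO and ductal-like cells would thus mostly be missed for a gene at that dispersion. These rates do not hold for the members, whose ductal-like values lay 3.26 (IER2) to 21.8 (FOSB) times apart between the primary libraries. With SE from 0.65 to 1.34, larger changes of the members could be missed as well. The PPDO replicates were different organoid lines and the primary ones different pigs. The text names all members, fixed genes of the 3 further lists and the 6 genes most like the members, and list genes beyond these were named after their values were seen, where they were called. The members and lists were chosen with earlier results of these data known.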

Additional observations from a re-analysis of the deposited data

Results flagged for a closer look

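The eGFP transgene was counted outside the gene tables. Primary pancreas 2 held 26 eGFP UMIs, and the other 3 libraries held 0, which allows up to 3 UMIs each. This was picked out because the transgene entered no comparison of the report. The methods place the INS-eGFP pig in the preparation taken here as primary pancreas 2.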

How the results depend on the processing

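Fits of PPDO against ductal-like cells called 4732 to 10644 genes and 0 to 6 of 7 members when a library was left out (10331 and 0 with all), with 5203 genes without PPDO 1 and 4732 without PPDO 2. Without the OSGIN1 cluster, chosen after seeing the data and lowering the duct levels by construction, 5 members were called. Leaving out a library, in turn, put the fold change of FOS between -1.60 and 2.11, FOSB -2.26 and 2.40, JUNB -0.28 and 2.61, EGR1 -1.96 and 0.60, ATF3 -1.73 and 1.81, DUSP1 -1.77 and 1.49 and IER2 -0.29 and 1.64, with both signs in each. Without the OSGIN1 cluster FOS (1.62), FOSB (1.12), EGR1 (0.59), ATF3 (1.27) and DUSP1 (0.97) changed sign, and without TMM factors IER2 (-0.025). Replicate numbers are shared by the titles only, and same-numbered sums did not deviate together (r = -0.01 over 23549 genes). A replicate block turned FOS to 0.28, FOSB to 0.091 and ATF3 to 0.069, with no member called. Other named genes took both signs with a library left out, EGR2 from -0.42 to 1.496, NR4A1 -3.31 to 0.85, KLF6 -1.79 to 0.72, ZFP36 -2.56 to 0.45, HSPH1 -0.99 to 0.30 and EGFR -0.0026 to 0.23. The sign also turned for EGR2 (-0.14 without TMM factors, -0.32 without extensions), KLF6 (0.51), ZFP36 (0.56), HSPH1 (0.28) and SRF (0.033) without the OSGIN1 cluster, and MAPK14 (-0.23) and EGFR (-0.31) without TMM factors. The member count among class differences was 6, and 3 without extensions, 3 without the OSGIN1 cluster and 1 without the library block. For duct against other classes it was 2, and 4 without TMM factors, 1 without extensions, 1 with DESeq2, 0 without the OSGIN1 cluster and 0 without the library block, and FOS turned to 0.075 without TMM factors and DUSP1 to -1.11 without the OSGIN1 cluster and -0.043 with DESeq2. The difference in members found per cell ran from -1.07 to 1.67 with a library left out and was -0.295 at 1000 UMIs and 1.86 unthinned (exact permutation p = 0.333). Of the members' fold changes of PPDO over ductal-like cells, 74 kept their direction and call, and 8 newly passed in the same direction. The other 16 turned, and some of these passed as well. Of their adjusted p-values of class differences, 45 stayed on their side of 0.05, 17 were lost and 1 newly passed. In the duct contrast 55 kept direction and call or moved by less than the spread, 10 moved further, 3 turned, 6 were lost and 3 newly passed. With a library left out, a turn was counted only for called members. FOS (0.32 and 0.28), JUNB (0.24), DUSP1 (-0.098) and IER2 (-0.12) took the other sign than the fit there, on the log2(CPM + 1) scale, and are not among the 3. The cause of the changes was not tested. Each group rests on 2 libraries, and IER2 on few UMIs.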
